A study of Homo sapiens with 4 samples.

Results

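The mitosis and spindle checkpoint genes examined here are 46 genes whose products carry a dividing cell from the end of G2 to abscission. They were taken by symbol from the 58365 rows of a deposited table of FPKM, which counts fragments per length of transcript and per library total. All 46 were found, each in 1 row and none at 0 in any library, and all 46 were among the 14909 genes that passed the filter on low values, a mean of at least 1 FPKM in at least 1 group. The cells were derived from H1, a widely used line of human embryonic stem cells (hESCs), by a chemically defined hematopoietic differentiation, and were collected at day 8. They received activin A with BMP4 for 2 days, then VEGF with bFGF for 3 days, and for the last 3 days VEGF with bFGF again, with either DMSO, the solvent, or SB431542 (SB), a chemical inhibitor of the type I receptors for TGFβ and activin. Each group holds 2 RNA-seq libraries, numbered 1 and 2, and all 4 libraries come from a single cell line, with no genetic change named in the labels. The methods of the study describe CD31+ cells as the material, a selection that the sample labels leave out. PECAM1, the gene for CD31, was measured at 197.1 and 163.2 FPKM with DMSO and at 181.8 and 152.6 FPKM with SB, so this defining marker was present in both groups.

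Entry into mitosis is driven by the kinase CDK1 with cyclins A and B, helped by the Polo and Aurora kinases. Kinetochores then attach chromosomes to spindle microtubules, and the spindle checkpoint holds the anaphase-promoting complex (APC/C) in check until every kinetochore is attached. Once released, APC/C with CDC20 marks securin and cyclin B for destruction, separase opens cohesin, and the central spindle guides the furrow that splits the cell. Transcripts of these genes are low in resting and G1 cells and peak in G2 and M, so their level in a mixed sample reflects, among other things, how many cells are in cycle. TGFβ is known as a growth inhibitor of endothelial and blood cells, and blood cells emerge from endothelium in the last days of this culture. In bulk RNA a larger share of cycling cells and more RNA per cycling cell cannot be told apart.

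Many of these genes share promoter features. The cell cycle genes homology region (CHR, read here as TTTGAA or TTCGAA or TTTAAA) is the contact site of the MuvB complex, which joins MYBL2 and FOXM1 in cycling cells, and CCAAT is the box bound by NF-Y. The 250 bases before the RefSeq start are printed for the kinase, cyclin and checkpoint genes with a single listed start whose window holds both motifs, namely CCNB1 (chr5:69166900-69167149), CDC20 (chr1:43358731-43358980), PLK1 (chr16:23678639-23678888) and CCNB2 (chr15:59104896-59105145). HMMR (chr5:163460382-163460631) was added after its values were seen, as the gene with the largest difference. All 5 are on the plus strand of GRCh38.p14 and run 5′ to 3′, and capitals mark every CHR and CCAAT match on either strand, so that ATTGG and TTCAAA are matches on the minus strand.
CCNB1: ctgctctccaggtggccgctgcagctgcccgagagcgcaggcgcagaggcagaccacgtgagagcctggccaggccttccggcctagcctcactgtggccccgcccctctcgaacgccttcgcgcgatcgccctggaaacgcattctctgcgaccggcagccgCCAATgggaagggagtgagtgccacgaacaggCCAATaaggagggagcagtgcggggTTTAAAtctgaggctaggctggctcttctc
CDC20: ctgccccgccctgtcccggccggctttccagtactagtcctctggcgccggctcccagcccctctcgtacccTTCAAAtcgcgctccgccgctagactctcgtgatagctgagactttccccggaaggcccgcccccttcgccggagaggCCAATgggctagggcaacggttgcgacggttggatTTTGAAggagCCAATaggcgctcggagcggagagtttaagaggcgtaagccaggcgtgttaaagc
PLK1: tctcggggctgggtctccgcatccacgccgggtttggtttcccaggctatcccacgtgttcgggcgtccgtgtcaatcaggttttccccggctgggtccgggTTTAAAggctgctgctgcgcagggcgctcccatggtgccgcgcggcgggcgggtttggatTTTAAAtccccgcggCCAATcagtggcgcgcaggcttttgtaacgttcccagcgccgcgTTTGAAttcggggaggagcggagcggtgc
CCNB2: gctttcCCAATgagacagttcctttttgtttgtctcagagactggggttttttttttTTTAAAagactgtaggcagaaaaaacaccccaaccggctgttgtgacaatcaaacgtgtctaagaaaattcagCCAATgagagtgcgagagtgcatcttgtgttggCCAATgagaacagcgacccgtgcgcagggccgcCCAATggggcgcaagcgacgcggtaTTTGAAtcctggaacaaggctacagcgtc
HMMR: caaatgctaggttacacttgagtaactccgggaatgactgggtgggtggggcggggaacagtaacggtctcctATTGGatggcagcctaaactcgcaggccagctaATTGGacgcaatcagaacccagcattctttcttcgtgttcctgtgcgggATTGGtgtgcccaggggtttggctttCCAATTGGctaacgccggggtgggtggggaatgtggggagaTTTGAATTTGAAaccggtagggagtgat

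In these windows the CHR letters nearest the start began 30 bases before it in CCNB1, 29 in PLK1 and CCNB2, 22 in HMMR and 65 in CDC20. CCNB1 carried CCAAT starting at 87 and 55 bases before the start, and CDC20 at 100 and 55. CCNB2 held 4 CCAAT boxes, at 244, 120, 87 and 54 bases, and HMMR held 5, of which 1 on each strand overlap in a shared run. PLK1 held a single CCAAT, at 73 bases, with 3 CHR matches.

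RefSeq promoter windows were at hand for 38 of the 46 genes, and the other 8 (UBE2C, RACGAP1, TTK, BIRC5, FOXM1, AURKA, BUB3 and TPX2) were not searched. CHR letters were found in 29 of the 38 (76.3%), against 20.8% of the 10206 tested genes with a window. CCAAT was found in 31 (81.6%), against 41.5%, and at least 2 CCAAT boxes in 21 (55.3%), against 15.1%. Both motifs stood together in 25 windows (65.8%), against 8.32% of tested genes and 9.70% of all 27305 genes with a window. The E2F letters TTCGCGC or TTGGCGC or TTCCCGC were found in 9 (23.7%, against 18.4%), and the forkhead letters TGTTTAC or TGTTTGC in 1, that of CDK1 (2.63%, against 6.09%). All letters were searched on both strands, a gene with several listed starts was counted once, and a match is a description of letters and not a bound site. Genes with both motifs had log2 fold changes from 0.06 to 1.22 (median 0.50, n = 25) and the others from 0.25 to 0.61 (median 0.40, n = 13), a difference that was not tested. The 5 genes with the smallest differences, ASPM, KIF11, NUSAP1, ECT2 and INCENP, all held both.

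The 46 genes as a group stood higher in the SB libraries. All 46 had a log2 fold change above 0 on the log2(FPKM + 1) scale, from 0.06 for INCENP to 1.22 for HMMR, with a median of 0.43, beside a median of 0.04 over all 14909 genes tested. The summed FPKM of the 46 genes was 625.9 and 721.7 with DMSO and 899.7 and 996.1 with SB, or 0.105% and 0.126% of all FPKM against 0.147% and 0.168%. In 32 genes both SB values lay above both DMSO values, and in 0 genes did both lie below, whereas this held for 21.5% of all tested genes in the first direction and 16.0% in the second. The ratio of mean FPKM, SB over DMSO, had a median of 1.41, reached 1.5 in 16 genes and reached 2 only in HMMR. By fold change, 26 of the 46 ranked in the top 10% of tested genes.

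No single gene of the 46 passed the test across all genes. In limma, a linear model whose error estimates are moderated across all genes, adjusted p ranged from 0.207 (HMMR) to 0.967 (INCENP), with 0 of 46 under 0.05, while 20 of the 14909 genes (0.134%) passed in either direction and 0.0268% as higher with SB. At an unadjusted p under 0.05, 18 of the 46 were higher and 0 lower, beside 4.80% and 5.16% of all tested genes. That count was 9 after rescaling by upper quartile (3.68% of all tested genes higher). It was 11 (3.78%) with nuclear-sum scaling, by the FPKM sum without mitochondrial, RN7SL1 and RN7SL2 transcripts. Fewer also passed with any 1 library left out, where 1 group holds a single library. The median log2 fold change of the 46 genes was then 0.34 to 0.54. With 2 libraries a group, an exact permutation test cannot give a two-sided p below 0.333, and nothing in the labels says that libraries of a group came from separate cultures, so the p-values measure only the spread between these libraries. The differences below are therefore given as values with their errors, and none is a change that passed the adjusted threshold.

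**Figure D1:**
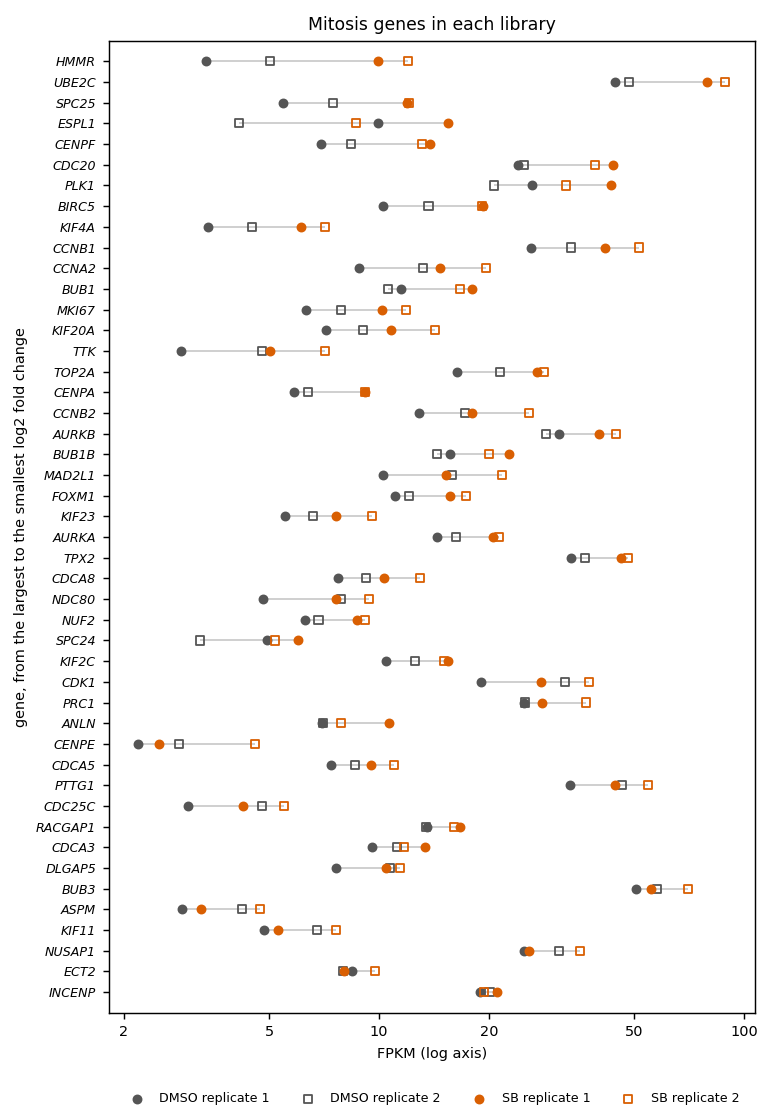
FPKM of each of the 46 genes in the 4 libraries, on a log axis, with genes ordered from the largest to the smallest log2 fold change (filled circles, replicate 1; open squares, replicate 2; grey, DMSO; orange, SB; the line spans the 4 values). Both orange marks lie to the right of both grey marks in 32 genes. The marks interleave in the other 14, among them ESPL1 near the top and all 5 at the bottom.

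The checkpoint genes stood higher with SB in all 6 cases (median log2 fold change 0.52). CDC20, the activator of APC/C and the protein that the checkpoint captures, was at 24.03 and 24.97 FPKM with DMSO and at 43.8 and 39.1 FPKM with SB. Both SB libraries were well above both DMSO libraries, and the log2 fold change was 0.73 ± 0.16 (SE, n = 2 a group; limma unadjusted p 0.00681, adjusted p 0.249). BUB1, the kinase that marks the centromere and recruits the checkpoint, was at 11.5 and 10.6 FPKM with DMSO and at 18.01 and 16.7 FPKM with SB, a log2 fold change of 0.61 ± 0.16 (adjusted p 0.327 in limma). BUB1B, which encodes the inhibitor BUBR1, gave 15.6 and 14.4 FPKM against 22.7 and 19.998 FPKM, again without overlap (0.48 ± 0.17). These 3 genes were lower in replicate 2 than in replicate 1 with SB, and BUB1 and BUB1B were so with DMSO too.

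MAD2L1 and TTK had more spread between libraries. MAD2L1, which encodes the checkpoint protein MAD2 that binds CDC20, had 10.3 and 15.9 FPKM with DMSO and 15.2 and 21.7 FPKM with SB. Here DMSO replicate 2 exceeded SB replicate 1, and the SE of 0.29 was large beside the difference of 0.48. TTK, the kinase MPS1 that starts checkpoint signaling, went from 2.87 and 4.79 FPKM to 5.04 and 7.10 FPKM (0.56 ± 0.28), with no overlap but a narrow gap. BUB3, a partner of BUB1 and BUBR1 that also works outside mitosis, was the most abundant of the group, with 50.8 and 57.8 FPKM against 55.5 and 70.2 FPKM. Its groups overlapped and its log2 fold change of 0.20 ± 0.19 was the smallest of the 6. The transcripts for the 4 proteins of the mitotic checkpoint complex (MAD2, BUBR1, BUB3 and CDC20) thus spanned log2 fold changes from 0.20 to 0.73.

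All 9 kinases, cyclins and regulators had higher means with SB (median log2 fold change 0.49). Of the 9, 7 did not overlap, beside 21.5% of all tested genes as higher. CCNB1 (ENSG00000134057.14, chr5:69167010-69178245), the main mitotic cyclin, was at 26.1 and 33.5 FPKM with DMSO and at 41.6 and 51.6 FPKM with SB. Its log2 fold change was 0.63 ± 0.21 (limma unadjusted p 0.0333, adjusted p 0.445), and it was 0.65 and 0.61 within replicate numbers 1 and 2. CCNB2, the second B-type cyclin, gave 12.9 and 17.2 FPKM against 17.96 and 25.7 FPKM (0.50 ± 0.25). CCNA2, cyclin A, which acts from S phase to early mitosis, gave 8.82 and 13.2 FPKM against 14.7 and 19.7 FPKM (0.61 ± 0.26). For each of the 3 cyclins the lower SB library lay above the higher DMSO library, and replicate 2 was the higher one in both groups.

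CDK1, the kinase that the 3 cyclins activate, did not separate in the same way. It stood at 19.0 and 32.3 FPKM with DMSO and at 27.8 and 37.6 FPKM with SB, so DMSO replicate 2 exceeded SB replicate 1. The log2 fold change of 0.37 ± 0.31 had a 95% interval from -0.44 to 1.18. The DMSO libraries differed by 0.73 on the log2 scale, more than the groups did. CDC25C, the phosphatase that switches CDK1 on, overlapped as well, at 2.99 and 4.78 FPKM against 4.25 and 5.49 FPKM (0.28 ± 0.26).

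PLK1, the Polo kinase of mitotic entry, centrosomes and kinetochores, had 26.3 and 20.7 FPKM with DMSO and 43.3 and 32.5 FPKM with SB. The groups did not overlap (0.66 ± 0.23, limma adjusted p 0.45), and here replicate 2 was lower in both groups. AURKB, the kinase of the passenger complex that corrects wrong attachments, gave 31.1 and 28.7 FPKM against 40.0 and 44.7 FPKM (0.49 ± 0.16). AURKA, the kinase of centrosomes and spindle poles, gave 14.4 and 16.3 FPKM against 20.5 and 21.4 FPKM (0.43 ± 0.16, unadjusted p 0.05 in limma). FOXM1, a transcription factor that drives G2 and M genes, gave 11.1 and 12.1 FPKM against 15.7 and 17.3 FPKM, with almost the same difference within both numbers (0.46 and 0.48). All 4 of these genes separated the groups.

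The passenger complex contains AURKB, INCENP, BIRC5 and CDCA8, and its members spread widely. BIRC5, survivin, which brings the complex to centromeres, had a log2 fold change of 0.66 ± 0.20, with means of 11.95 ± 2.43 FPKM with DMSO and 19.2 ± 0.0347 FPKM with SB (SD, n = 2). CDCA8, borealin, had a log2 fold change of 0.41 ± 0.20 and did not overlap. INCENP, the scaffold that activates AURKB, was at 18.9 and 20.1 FPKM with DMSO and at 21.1 and 19.5 FPKM with SB. Its SB replicate 2 lay below its DMSO replicate 2, and the log2 fold change of 0.06 had a 95% interval from -0.36 to 0.47.

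The 7 kinetochore genes were all higher with SB in both numbers (median log2 fold change 0.40), beside 40.9% of all tested genes. SPC25, a subunit of the NDC80 complex that grips microtubules, had 5.47 and 7.50 FPKM with DMSO and 11.9 and 12.1 FPKM with SB. Both SB libraries were far above both DMSO libraries (0.81 ± 0.20; limma unadjusted p 0.0108, adjusted p 0.297). CENPF, a large protein of the outer kinetochore and of the nuclear matrix in G2, had 6.95 and 8.36 FPKM against 13.8 and 13.1 FPKM (0.74 ± 0.17; unadjusted p 0.0087, adjusted p 0.274 in limma). The other 3 subunits of the NDC80 complex lay close together at log2 fold changes of 0.40 for NDC80, 0.40 for NUF2 and 0.39 for SPC24. Of these NUF2 and SPC24 separated the groups and NDC80 did not. CENPA, the histone H3 variant that defines centromeres, had a log2 fold change of 0.52 ± 0.16, from a mean of 6.11 ± 0.386 FPKM to 9.16 ± 0.0194 FPKM (SD, n = 2). CENPE, a kinesin that aligns chromosomes, was the least abundant of all 46 genes and overlapped (0.34 ± 0.29).

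The 8 spindle genes held both the largest difference and several of the smallest. HMMR (ENSG00000072571.19, chr5:163460203-163491945), a spindle pole protein also known as a hyaluronan receptor, stood at 3.36 and 5.03 FPKM with DMSO and at 9.94 and 11.998 FPKM with SB. The lower SB library was well above the higher DMSO library, and the ratio of mean FPKM was 2.62. The log2 fold change was 1.22 ± 0.23 (95% interval 0.61 to 1.83; limma unadjusted p 0.00378, adjusted p 0.207). KIF4A, a chromokinesin of chromosome arms and the midzone, had the second largest difference of the 8 (0.63 ± 0.20). TPX2, which activates AURKA on the spindle, and KIF2C, a microtubule-depolymerizing kinesin, had log2 fold changes of 0.42 ± 0.16 and 0.38 ± 0.17 without overlap.

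At the other end were the genes of spindle poles and fibers. ASPM, which focuses spindle poles, had 2.88 and 4.21 FPKM with DMSO and 3.25 and 4.72 FPKM with SB (0.13 ± 0.26). KIF11, the kinesin that pushes the poles apart, had 4.84 and 6.78 FPKM against 5.29 and 7.63 FPKM (0.13 ± 0.26). NUSAP1, which bundles microtubules, had 25.05 and 31.1 FPKM against 25.7 and 35.5 FPKM (0.11 ± 0.23). In all 3 genes the libraries went by number, with both replicate 2 libraries above both replicate 1 libraries, and their differences lost their sign when DMSO replicate 1 or SB replicate 2 was left out. Without DMSO replicate 1 they were -0.08 for ASPM, -0.08 for KIF11 and -0.04 for NUSAP1. DLGAP5, which stabilizes spindle fibers, overlapped too (0.25 ± 0.21).

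Of the 6 cytokinesis genes, KIF20A, a kinesin of the central spindle, had the largest difference (0.57 ± 0.22), with means of 8.10 ± 1.31 FPKM with DMSO and 12.5 ± 2.44 FPKM with SB (SD, n = 2). KIF23 and RACGAP1, the partners in centralspindlin, had log2 fold changes of 0.44 ± 0.20 and 0.26 ± 0.16. PRC1, which cross-links midzone microtubules, and ANLN, the furrow scaffold, had 0.35 ± 0.20 and 0.34 ± 0.20. All 5 of these genes separated the groups, although PRC1 did so mainly through SB replicate 2 and ANLN mainly through SB replicate 1. ECT2, the exchange factor that activates RhoA at the furrow, was at 8.44 and 7.95 FPKM with DMSO and at 8.00 and 9.73 FPKM with SB. It was the only 1 of the 46 that was lower with SB within replicate number 1 (-0.07), and it was higher within number 2 (0.26).

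The 5 genes of ubiquitin-dependent exit and of cohesion included the most abundant gene of the set. UBE2C (ENSG00000175063.16, chr20:45812576-45816957), the ubiquitin-conjugating enzyme that serves APC/C, had 44.3 and 48.4 FPKM with DMSO and 79.3 and 89.0 FPKM with SB. Its pairs were tight and far apart, with a log2 fold change of 0.85 ± 0.17 (95% interval 0.42 to 1.27; limma unadjusted p 0.00408, adjusted p 0.209) and 0.83 and 0.87 within the numbers. ESPL1, separase, the protease that cuts cohesin, had 9.95 and 4.13 FPKM with DMSO and 15.5 and 8.64 FPKM with SB. Here the numbers differed more than the groups, so the groups overlapped and the SE of 0.46 was the largest of the 46, although the differences within the numbers were 0.59 and 0.91. PTTG1, the separase inhibitor securin, stood at means of 39.8 ± 9.13 FPKM and 49.5 ± 7.33 FPKM (0.32 ± 0.23) and overlapped. CDCA5, sororin, which protects cohesin, and CDCA3 had log2 fold changes of 0.32 ± 0.18 and 0.25 ± 0.18 without overlap.

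Both genes of mitotic chromosome structure separated the groups. MKI67, whose protein Ki-67 coats mitotic chromosomes and is used as a proliferation marker, had 6.30 and 7.88 FPKM with DMSO and 10.2 and 11.9 FPKM with SB (0.58 ± 0.19, limma adjusted p 0.436). TOP2A, the topoisomerase that untangles sister chromatids, had 16.3 and 21.4 FPKM against 27.1 and 28.3 FPKM (0.54 ± 0.20, adjusted p 0.473 in limma). In both genes the SB libraries lay above the DMSO libraries. The SB libraries of TOP2A lay closer together than its DMSO libraries, while in MKI67 the spread was similar (SD 1.12 FPKM with DMSO and 1.20 FPKM with SB).

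In level, which FPKM gives per length of transcript and without the depth behind it, the 46 genes ran from 2.19 FPKM (CENPE, DMSO replicate 1) to 89.0 FPKM (UBE2C, SB replicate 2), and 28 averaged at least 10 FPKM. With DMSO BUB3 was the highest in both libraries and UBE2C came second. With SB this order was turned, and UBE2C was above BUB3 in both libraries. At the low end CENPE, ASPM, CDC25C, SPC24 and TTK averaged under 5 FPKM, and neighbours among these did not differ beyond the spread between libraries.

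**Figure D2:**
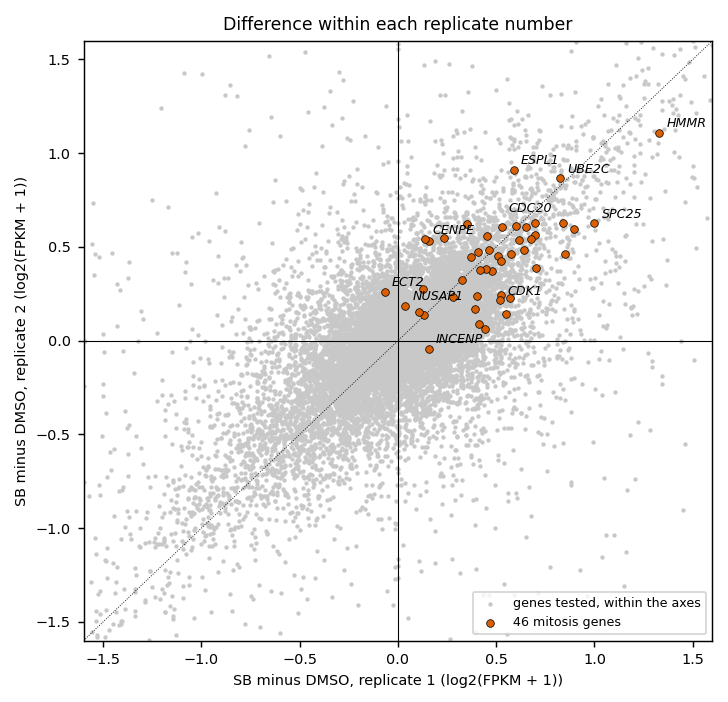
Difference between SB and DMSO on the log2(FPKM + 1) scale within replicate number 1 (x axis) and within number 2 (y axis), for the 46 genes (orange) and the tested genes within the axes (grey), with the dotted line marking equal differences. Of the 46 genes, 44 lie in the upper right part, with ECT2 left of the vertical line and INCENP below the horizontal one.

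Within the replicate numbers, 44 of the 46 genes were higher with SB in both and 0 were lower in both, beside 40.9% and 30.6% of all tested genes. The medians over the 46 genes were 0.50 within number 1 and 0.45 within number 2, against 0.05 and 0.03 over all tested genes. ECT2 and INCENP were the exceptions, each with differences of opposite sign in the 2 numbers. With the number as a block in limma, which takes such shifts out of the error, 23 of the 46 genes passed the adjusted p as higher and 0 as lower, beside 5.50% and 4.99% of all tested genes, with UBE2C at the smallest adjusted p (0.00786). The labels do not say that libraries of the same number belong together, so the values without the block are the ones reported above.

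The libraries also differed by number, and the mitosis genes took part in that. With DMSO 38 of the 46 genes were higher in replicate 2 than in replicate 1, with SB 32 were, and 30 were so in both groups, beside 42.2% of all tested genes. The median difference, replicate 2 minus replicate 1, was 0.23 with DMSO and 0.18 with SB on the log2 scale, against 0.04 and 0.02 over all tested genes. CDK1 (0.73 and 0.43) and MAD2L1 (0.58 and 0.48) were far higher in replicate 2. ESPL1 (-1.10 and -0.77), SPC24 (-0.49 and -0.18) and PLK1 (-0.33 and -0.40) went the other way. In 13 of the 46 genes the difference between the DMSO libraries was larger than that between the groups, and the share over all tested genes was not counted. What the numbers stand for is not given in the labels, and mitochondrial transcripts moved with them, taking 5.88% and 6.64% of FPKM in the replicate 1 libraries and 9.92% and 10.2% in the replicate 2 libraries. Their part in the result was not tested.

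**Figure D3:**
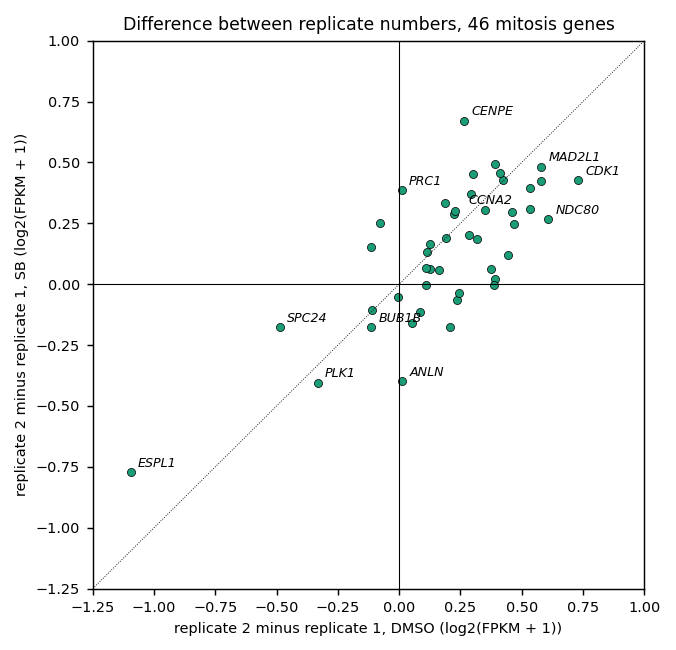
Difference between replicate 2 and replicate 1 on the log2(FPKM + 1) scale with DMSO (x axis) and with SB (y axis) for the 46 genes, 1 point a gene, with the dotted line marking equal differences. In 30 genes the point lies in the upper right part, and ESPL1 stands apart at the lower left, with -1.10 and -0.77.

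The other genes of mitosis, 109 in 5 lists, mostly stood higher with SB too. Their median log2 fold change was 0.25, 85 were higher in both numbers and 7 lower in both (40.9% and 30.6% of all tested genes), and 52 did not overlap as higher and 2 as lower (21.5% and 16.0% of all tested genes). In limma 0 passed the adjusted p, with 13 higher and 0 lower at an unadjusted p under 0.05 (4.80% and 5.16% of all tested genes). The 31 other kinetochore genes had a median of 0.21. ZWINT, which links the outer kinetochore to the checkpoint, had the smallest p of them, with 20.7 and 21.8 FPKM against 36.7 and 39.2 FPKM (0.81 ± 0.16, adjusted p 0.209 in limma), followed in order of p by KNL1 (0.74 ± 0.25), the platform for BUB1, and MIS12 (0.58 ± 0.21), of the complex that anchors NDC80. Among 16 further kinases and regulators (median 0.39) the CDK subunits CKS1B (0.59 ± 0.17) and CKS2 (0.70 ± 0.22) and ENSA (0.53 ± 0.17), an inhibitor of the phosphatase that opposes CDK1, had the smallest p.

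The list of 26 other spindle and cytokinesis genes had a median of 0.35, with SPAG5 (0.65 ± 0.17), which links spindle poles and kinetochores, PSRC1 (0.55 ± 0.17) and DEPDC1B (0.54 ± 0.17) at the smallest p. The 19 condensin and cohesin genes had a median of 0.20, and the condensin I and II subunits NCAPH (0.51 ± 0.16), NCAPD2 (0.38 ± 0.18) and NCAPG2 (0.31 ± 0.16) had the smallest p. Of the 17 other genes of APC/C and its regulators (median 0.15), ANAPC15, which helps release the checkpoint, had 18.5 and 17.0 FPKM against 30.9 and 31.2 FPKM (0.77 ± 0.16), and ANAPC7 (0.36 ± 0.20) and ANAPC5 (0.23 ± 0.18) were next by p. In the list of MuvB and its partners, 12 of 13 were tested, with a median of 0.13. MYBL2 had 13.9 and 12.9 FPKM against 19.3 and 17.7 FPKM (0.44 ± 0.16), and LIN52 (0.29 ± 0.19) and TFDP2 (0.22 ± 0.16) followed by p.

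**Figure D4:**
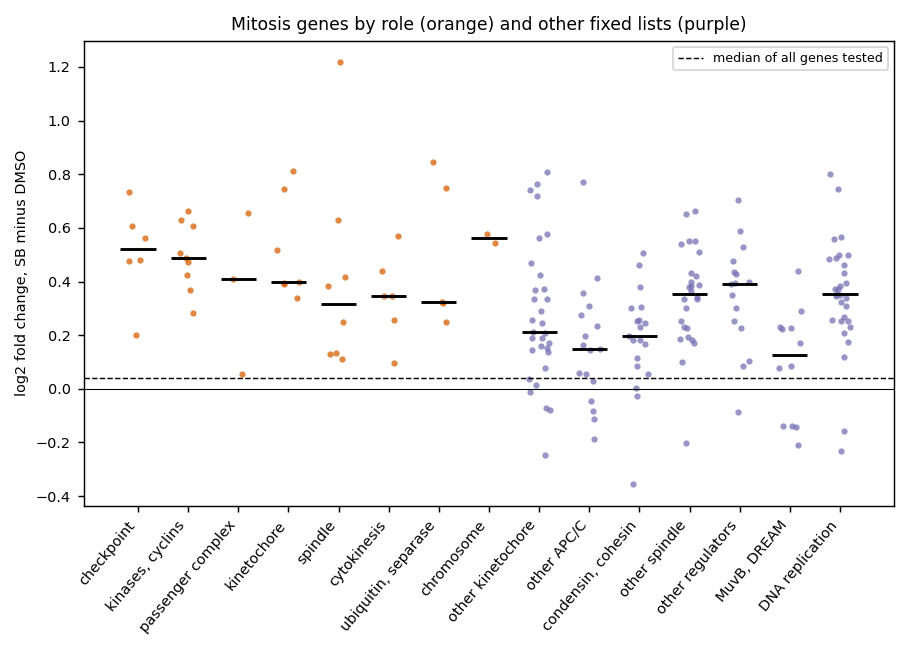
Log2 fold change, SB minus DMSO on the log2(FPKM + 1) scale, of the 46 genes by role (orange) and of the genes tested in 7 further lists (purple), 1 point a gene, with a bar at each list's median and a dashed line at the median of all tested genes (0.04). All orange points lie above 0, and the medians run from 0.32 (spindle) to 0.56 (chromosome), against 0.13 to 0.39 for the purple lists.

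The DNA replication genes mostly stood higher with SB as well. Of 30 genes, 27 were higher with SB in both numbers and 2 lower in both, beside 40.9% and 30.6% of all tested genes. The median was 0.35, and 18 did not overlap as higher, beside 21.5%. In limma 0 passed the adjusted p, with 4 higher and 0 lower at an unadjusted p under 0.05, beside 4.80% and 5.16%. GINS2, of the replicative helicase, had 1.74 and 2.01 FPKM against 3.77 and 4.25 FPKM (0.80 ± 0.19), CDC45, of the same helicase, had 0.75 ± 0.22, and the primase subunit PRIM1 had 0.50 ± 0.17. Among 8 CDK inhibitor genes (median 0.26), CDKN1A, p21, was at 97.2 and 89.5 FPKM with DMSO and at 56.9 and 55.9 FPKM with SB, a log2 fold change of -0.72 ± 0.16 (limma unadjusted p 0.00633, adjusted p 0.245). CDKN2D (0.77 ± 0.18) was higher without overlap, and CDKN2B, p15, a known TGFβ target, was at 1.29 and 0.768 FPKM against 0.13 and 0.0488 FPKM. CDKN2B passed the filter only through DMSO and CDKN2C only through SB, in each case the group in which the gene was higher.

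Markers of the cell types that such a culture can hold also differed between the groups. Over all tested genes, 40.9% were higher and 30.6% lower with SB in both numbers. Of the blood cell markers 12 of 13 were tested, all 12 were higher with SB in both numbers (median 1.21), and their summed level was 359.4 to 390.3 FPKM with DMSO and 698.2 to 721.1 FPKM with SB. PTPRC, which encodes CD45, was at most 0.202 FPKM in any library. The 10 megakaryocyte markers were all higher (median 1.23), with sums of 205.9 to 207.8 FPKM and 528.2 to 644.3 FPKM, PPBP, PF4 and GP1BB among them. PPBP and TREML1 averaged 0.926 and 0.889 FPKM with DMSO. Both passed the filter only through SB, the group in which they were higher. Erythroid markers were lower on balance (median -0.47, 7 of 12 lower in both numbers, sums of 1779 to 2128 FPKM and 1437 to 1749 FPKM), led by ALAS2 and HBZ. AHSP was under the filter and not tested, at 0.328 and 0.180 FPKM with DMSO and at 0 in both SB libraries.

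Endothelial markers were lower more often than higher with SB (14 tested, median -0.14, sums of 2448 to 2822 FPKM and 2312 to 2665 FPKM). Within both numbers 9 of the 14 were lower and 3 higher. Of the 14, 4 did not overlap as lower and 2 as higher, beside 16.0% and 21.5% of all tested genes. For the counts within both numbers given here and below, the shares over all tested genes were 40.9% higher and 30.6% lower. ENG was at 64.2 and 47.9 FPKM with DMSO and at 17.8 and 14.7 FPKM with SB (-1.72 ± 0.22), ROBO4 had a log2 fold change of -1.09 ± 0.16, and CLDN5 had 1.04 ± 0.27. Markers of endoderm (11 of 13 tested, all lower in both numbers, median -1.31) summed to 346.4 to 349.0 FPKM with DMSO and to 53.8 to 82.4 FPKM with SB. APOB, FOXA2, HNF4A and FOXA1 averaged under 1 FPKM with SB and passed the filter only through DMSO, where they were higher. Of the 11 endoderm markers tested, 4 (APOA1, AFP, TTR and APOA2) passed the adjusted p as lower, beside 0.134% of all tested genes in either direction. In limma with no filter, or with any 1 library left out, 0 of the replication, inhibitor and marker genes passed, these 4 included. Mesenchymal markers (9 of 11 tested, all lower in both numbers, median -0.83), COL1A1 and TAGLN among them, summed to 390.7 to 431.9 FPKM and 215.5 to 216.9 FPKM. Of the pluripotency genes, NANOG, SOX2 and PRDM14 were under the filter with at most 0.121 FPKM in any library. The 5 tested had a median of -0.01, with 2 higher and 2 lower in both numbers. LIN28A (0.59 ± 0.19) was higher without overlap. POU5F1 (0.72 ± 0.23) was higher and TDGF1 (-0.70 ± 0.25) lower without overlap, but both lay near the filter of 1 FPKM. POU5F1 averaged 0.458 FPKM with DMSO and 1.415 FPKM with SB, and TDGF1 averaged 1.059 FPKM with DMSO and 0.261 FPKM with SB. Each passed the filter only through the group in which it was higher. A selection of CD31+ cells, as in the methods of the study, would remove cells of endoderm and mesenchyme that lack CD31. The part of these cell types in the difference of the mitosis genes was not tested.

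Some values rest on genes that overlap others. Strand use in counting is not stated, and 11 of the 46 genes overlap another gene of at least 1 FPKM on average. NUF2 overlaps RGS5 on the other strand, which was at 168.5 and 271.3 FPKM with DMSO and at 75.7 and 97.5 FPKM with SB, far above NUF2 and in the opposite direction. SPC25 overlaps NOSTRIN on the other strand, which was at 16.1 and 17.5 FPKM with DMSO and at 21.4 FPKM in both SB libraries, above SPC25 and in the same direction. On the other strand too, CDC25C overlaps FAM53C, KIF20A overlaps BRD8 and CDC23, KIF4A overlaps PDZD11, CCNA2 overlaps EXOSC9, FOXM1 overlaps RHNO1, CDCA3 overlaps GNB3 and ANLN overlaps KIAA0895. CENPA overlaps SLC35F6 on its own strand. Rows that carry a member's name were low. UBE2CP1, AURKAPS1, BUB1B-PAK6, HMMR-AS1, CDC20P1, PTTG2, PRC1-AS1, KIF4B, MKI67P1, CCNB2P1 and RACGAP1P reached at most 0.639 FPKM, and BUB3P1, AURKAPS2, UBE2CP3, UBE2CP4 and BUB1P1 were listed at 0.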

How the data were processed

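RNA-seq was measured in 4 libraries of H1-derived cells, grouped by their titles. The table deposited by the authors gives FPKM for 58365 rows, after sequencing and primary processing by a service company. The submitters' processing notes name BWA, Bowtie and RSEM, without versions or roles, and hg19, but 95.5% of the identifiers are in GENCODE release 29 on GRCh38, 99.8% of these at the same position, so coordinates are given on GRCh38, counted from 1. Absolute depth and counting error are unknown. The commonest ratio between values of single-exon genes put the libraries at 75.5% to 100% of the deepest, their summed FPKM was 570844 to 612614, and 14183 to 14372 genes reached 1 FPKM in a library.

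The 14909 genes past the filter were compared on log2(FPKM + 1), which understates the change of low genes, with limma 3.58.1 in R 4.3.3 (empirical Bayes with trend, group as the only term, two-sided, Benjamini-Hochberg over all genes, threshold 0.05). The scripts were tested on simulated data. The 46 genes and all lists were chosen with earlier results of these data known. Library values are given for the kinases, cyclins, checkpoint genes, MKI67, TOP2A, and the 5 largest differences, 5 smallest differences and 5 smallest p-values, and up to 3 genes of the smallest p are named per other list. Other genes named were chosen after their values were seen, and 1 overlapping gene is not reported here. Promoter windows are from RefSeq on GRCh38.p14, whose starts can differ from the gene ends in the table. Alternatives were a replicate block, other filters, a pseudocount of 0.1, other scalings, no trend and the removal of each library. The block joined to a scaling, and a longer promoter window, were added after seeing the data.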

Additional observations from a re-analysis of the deposited data

How the results depend on the processing

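Under the alternatives that kept all 4 libraries, 457 of 457 values of the mitosis genes were above 0. Many of these could not differ from the main fit. The block, the filters and the trend leave each log2 fold change as it was, and only the pseudocount and the scalings can change it. Under leaving out a library 8 of the other values turned. These were KIF11 at -0.079, NUSAP1 at -0.039 and ASPM at -0.080 without DMSO replicate 1, INCENP at -0.00060 without SB replicate 1, and KIF11 at -0.10, NUSAP1 at -0.11, ASPM at -0.083 and ECT2 at -0.030 without SB replicate 2. Without SB replicate 1 the highest values of the same genes were 0.36 (KIF11), 0.35 (ASPM) and 0.22 (ECT2), and INCENP reached 0.11 without SB replicate 2. The median log2 fold change of the 46 genes was 0.47 with the filter of 5 FPKM in 2 libraries (43 genes tested), 0.48 with a pseudocount of 0.1, 0.39 with upper-quartile or nuclear-sum scaling, and 0.34 to 0.54 with 1 library left out (lowest without DMSO replicate 1, highest without SB replicate 1). The members at an unadjusted p under 0.05 were 9 with upper-quartile and 11 with nuclear-sum scaling, and 2 to 12 with a library left out (5 without DMSO replicate 1, 12 without DMSO replicate 2, 2 without SB replicate 1 and 4 without SB replicate 2), against 18. None of the 46 passed the adjusted p in any fit without the block, and 2 to 19 did so at the unadjusted one. Over all genes 31 passed with quantile normalization, 0 with no filter (2739 at an unadjusted p under 0.05) and 0 to 16 with 1 library left out (0 without DMSO replicate 1, 7 without SB replicate 1), against 20. Of the replication, inhibitor and marker lists 0 passed with no filter and 0 with any library left out, against 4. With a group of 1 library, the lone library is assumed to vary like the other group. The median of the pluripotency markers, -0.01, turned to 0.29 under the stricter filter, where only LIN28A (0.59) and DPPA4 (-0.01) remained. It turned to 0.23 without DMSO replicate 2 and 0.20 without SB replicate 1, and was -0.25 without DMSO replicate 1. The cause of the turns with a library left out was not tested.

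The replicate numbers share no stated origin. Deviations of the number 1 libraries from their group means correlated at 0.53 over tested genes and 0.74 over the 46 genes. With the number as a replicate block, 23 of the 46 genes passed the adjusted p, all higher (5.50% of all genes higher and 4.99% lower). At an unadjusted p under 0.05, 36 were higher (17.2% of all genes). In all 1564 genes passed the adjusted p, with 15 of 121 other mitosis and MuvB genes, all higher. Of the replication, inhibitor and marker lists 60 genes passed, in both directions. Among them 12 of 12 blood cell markers, 9 of 10 megakaryocyte markers and 10 of 30 replication genes were higher. Lower were 7 of 12 erythroid, 7 of 11 endoderm, 7 of 9 mesenchymal and 4 of 14 endothelial markers (1 was higher). Added after seeing the data, the block with quantile normalization gave, in the same order, 13 (3.64% of all genes higher), 34 (14.6%), 1201, 7 and 51. The block with nuclear-sum scaling gave 19 (4.67%), 33 (13.9%), 1589, 11 and 58, with a median of 0.39. Depth is unknown, which leaves the counting error of the lowest genes, such as CENPE, unknown too.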

Other observations

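With the promoter window extended to 50 bases past the start, a choice made after seeing the data, CHR letters were found in 35 of the 38 windows (92.1%), against 22.9% of tested genes, and both motifs in 28 (73.7%), against 9.70%. RN7SL RNAs took 4.45% and 3.96% of FPKM in the replicate 1 libraries and 1.40% and 1.54% in the replicate 2 libraries.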
